A study of Homo sapiens with 6 samples.

Results

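MYC and 39 genes for the assembly of ribosomes were followed in irradiated breast cancer cells. These 40 genes were chosen by name, as MYC, nucleolar proteins, subunits of RNA polymerase I and processing factors of the small and large ribosomal subunits. Earlier results of these data were known when they were chosen. All 40 were among the 58735 genes of the expression table. RNA-sequencing covered 6 libraries of MDA-MB-231, a human basal-like breast adenocarcinoma line, whose genotype the labels give as WT and whose libraries they name SCR. The authors' paper names its non-targeting shRNA control shSCR, and SCR was read as that name. 3 control libraries came from cells at 0 Gy and 3 RT libraries from cells given 10 Gy in a 137Cs irradiator, with RNA taken 24 h later. All 6 libraries share the line and the SCR name. No source used here says that the replicates were separate cultures. The p-values below therefore measure the spread between these libraries, which may be technical. In bulk RNA, fewer cells with a transcript and less of it in each cell cannot be told apart.

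Ribosomes are built in the nucleolus, where RNA polymerase I transcribes a long precursor of ribosomal RNA. Small nucleolar ribonucleoproteins (snoRNPs) modify this precursor, and separate sets of processing factors cut and fold it into the small and the large subunit. MYC is a transcription factor that binds the E-box CACGTG as a dimer with MAX, and genes of ribosome production are among its best known targets in growing tumor cells.

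Expression is given in FPKM (fragments per kilobase of gene, scaled to sequencing depth), so that levels can be compared between genes. Changes are differences of log2(FPKM + 1), 10 Gy minus 0 Gy, tested with limma. The 12128 genes that averaged 1 FPKM or more entered the fit, and a gene was called at a Benjamini-Hochberg adjusted p under 0.05. This scale understates the change of low genes. Between 15643641 and 28861781 reads stood behind the genes of a library. The FPKM of a library summed to between 269611 and 278380 at 0 Gy and to between 246920 and 254918 at 10 Gy, so the choice of scaling matters for small changes. The median log2 change of all genes was -0.04 with FPKM as deposited and 0.07 once every library was set to the same sum (TPM scaling), and each change below is to be read against that median. Under TPM scaling the called genes went from 2874 lower and 1443 higher to 1071 lower and 3127 higher.

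The identity of the line was checked against its markers. VIM, CD44 and EGFR, which mark this mesenchymal-like line, were the highest of its 8 listed markers, with VIM between 247 and 312 FPKM. PGR was at 0 in all 6 libraries and ESR1 did not exceed 0.0169 FPKM. Group means at 0 Gy and 10 Gy were 1.44 and 1.34 FPKM for EPCAM and 0.324 and 0.366 FPKM for CDH1. For ERBB2 they were 7.08 and 7.67 FPKM, near the 0 Gy median of all genes tested (7.11 FPKM). VIM (log2 change -0.26, limma adjusted p = 0.0029) and CD44 (-0.11, limma adjusted p = 0.044) were called lower at 10 Gy. EGFR, EPCAM and ERBB2 did not pass. Summed markers of fibroblasts lay between 4.19 and 4.31 FPKM at 0 Gy and between 5.54 and 5.81 at 10 Gy. The corresponding sums were 1.57 to 2.61 and 2.09 to 3.23 for leukocyte markers, with CD3E at 0 throughout, and 2.16 to 2.49 and 2.82 to 3.15 for endothelial markers. Of these markers, COL1A1 (3.03 to 4.19 FPKM in group means) and PECAM1 (1.22 to 1.94 FPKM) were called higher at 10 Gy, while PDGFRB (1.19 to 1.44 FPKM) and CD14 (1.96 to 2.48 FPKM) did not pass. DCN was at 0 in 5 libraries, PTPRC did not exceed 0.0071 FPKM and VWF did not exceed 0.0311 FPKM. The part of these markers in the results was not tested.

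The promoters of the group were read first, since MYC binds DNA at a known motif. Of the 40 genes, 31 had a RefSeq window on GRCh38.p14 from 250 bases before to 50 bases after an annotated start. The palindrome CACGTG stood in 13 of these 31 (41.9%), against 8.77% of all gene symbols with a window and 12.9% of those among the genes tested. The related CACGCG, searched on both strands, stood in 11 of 31 (35.5%), against 13.5% and 23.1%. Either motif was found in 21 of 31 (67.7%), against 20.3% and 32.4%. The CACGTG matches of these 13 genes began between 31 bases before and 35 bases after the annotated start. A match is a description of the letters and not a binding site. The 6 windows below run from 70 bases before to 30 bases from the start and are written 5′ to 3′ on the strand of the gene, with CACGTG in capitals. They are shown to set genes that fell after 10 Gy beside genes that did not pass the test although they hold the same motif near the start. FBL (chr19:39846350-39846449, minus strand), RRP9 (chr3:51941875-51941974, minus strand), PES1 (chr22:30591881-30591980, minus strand) and NOP14 (chr4:2963377-2963476, minus strand) fell with FPKM as deposited, and of these FBL kept its call under TPM scaling. GNL3 (chr3:52685962-52686061, plus strand) and UTP20 (chr12:101280035-101280134, plus strand) did not pass.
FBL: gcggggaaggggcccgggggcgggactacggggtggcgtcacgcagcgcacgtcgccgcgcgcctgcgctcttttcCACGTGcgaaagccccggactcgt
RRP9: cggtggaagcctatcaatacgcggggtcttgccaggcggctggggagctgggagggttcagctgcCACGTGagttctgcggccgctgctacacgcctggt
PES1: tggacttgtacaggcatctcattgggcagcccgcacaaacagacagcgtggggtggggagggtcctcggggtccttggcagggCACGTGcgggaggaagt
NOP14: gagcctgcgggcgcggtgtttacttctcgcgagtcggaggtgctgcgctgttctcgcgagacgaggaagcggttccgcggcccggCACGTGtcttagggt
GNL3: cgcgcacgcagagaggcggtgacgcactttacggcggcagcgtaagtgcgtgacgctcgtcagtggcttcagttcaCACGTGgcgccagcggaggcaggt
UTP20: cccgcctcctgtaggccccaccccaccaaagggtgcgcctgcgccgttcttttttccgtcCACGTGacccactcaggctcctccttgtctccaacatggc

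Among genes with a window, 8 of the 20 that fell held CACGTG, as did 4 of the 10 that were tested and did not pass, so the share with the motif was 40% in both. CACGCG stood in 7 of 20 and in 4 of 10. Either motif stood in 13 of 20 and in 7 of 10. These shares leave out 8 of the 28 genes that fell, BOP1, DDX18, MYC, NOLC1, NOP58, RRP12, RRP1B and RRS1, which were not matched to a window. Of the 14 genes called lower under each of the 4 scalings described below, 9 had a window, and 2 of these, FBL and GAR1, held CACGTG.

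MYC and most of the ribosome biogenesis factors were lower 24 h after 10 Gy, by small amounts. MYC itself fell to 0.706 of its control level, and 28 of the 39 genes tested were called lower and 0 higher, against 23.7% lower and 11.9% higher among all genes tested. The median log2 change was -0.20 for the group and -0.04 for all genes. The 5 largest decreases were those of MYC, the large subunit factors RRS1 and BOP1 and the snoRNP proteins GAR1 and NHP2, whereas none of the 4 RNA polymerase I subunits of the group passed the test. In 30 of the 39 genes all 3 libraries at 10 Gy lay below all 3 at 0 Gy, a pattern seen in 32.8% of all genes, and in the other 9 the groups overlapped. Only 3 of the 28, MYC, RRS1 and BOP1, fell by at least 1.3-fold, as did 2.95% of all genes tested. At 1.3-fold the log2 change is 0.379. The count of 28 depended on scaling. It was 21 with median of ratios scaling (16.9% of all genes lower), 16 with upper quartile scaling (11.9%) and 14 with TPM scaling (8.83%).

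**Figure D1:**
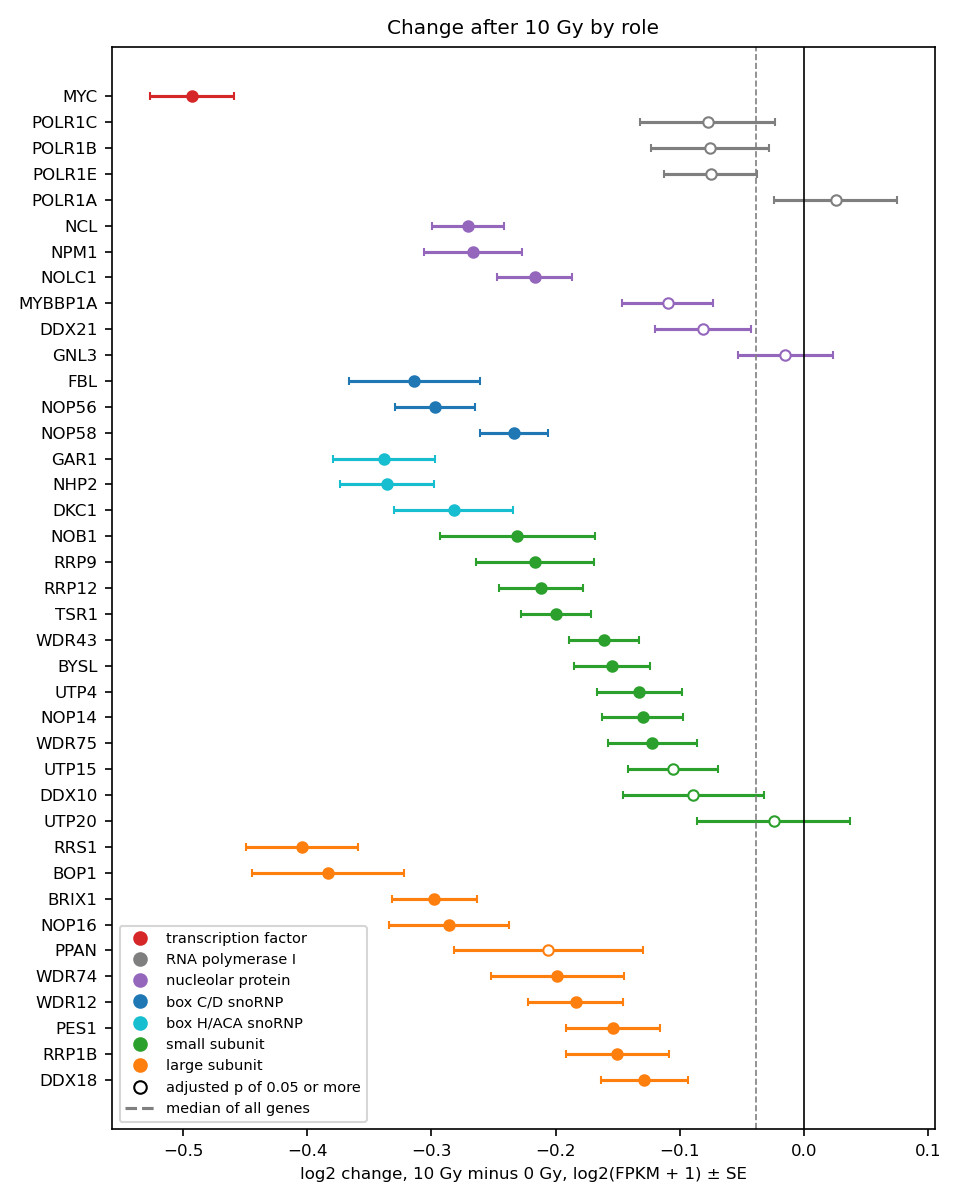
Log2 change of the 39 tested genes, 10 Gy minus 0 Gy on log2(FPKM + 1), with bars of 1 standard error (n = 3 libraries a group); filled points have an adjusted p under 0.05, colors mark roles and the dashed line is the median of all genes (-0.04). MYC lies lowest at -0.49, the core box C/D and box H/ACA proteins lie between -0.34 and -0.23, and the RNA polymerase I subunits lie between -0.08 and 0.03.

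MYC had 66.2, 63.1 and 64.5 FPKM at 0 Gy and 46.6, 44.2 and 46.0 FPKM at 10 Gy. The groups were far apart, with the lowest control library above the highest irradiated one. The log2 change was -0.49 (SE 0.034, limma adjusted p = 0.00044), and 1.17% of the genes tested had a lower value. With TPM scaling it was -0.37, and MYC was called lower in all 20 fits of the settings tried.

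The 3 core box C/D and 3 core box H/ACA snoRNP proteins of the group were all called lower. SNU13, the remaining core protein of box C/D particles and not of the group, did not pass, at 50.3 ± 2.46 FPKM at 0 Gy and 46.8 ± 1.99 FPKM at 10 Gy (SD, n = 3, log2 change -0.10, limma adjusted p = 0.13), and its groups overlapped. Box C/D particles add methyl groups to the ribose of ribosomal RNA. FBL, the methyltransferase, had 113, 98.8 and 101 FPKM at 0 Gy and 82.0, 85.0 and 84.1 FPKM at 10 Gy. Control replicate 1 was the highest FBL library, and the groups did not overlap (log2 change -0.31, SE 0.053, limma adjusted p = 0.0046). NOP56, a scaffold of the same particle, went from 60.2, 57.0 and 59.8 FPKM to 48.4, 47.7 and 47.4 FPKM (-0.30, SE 0.032). NOP58, its partner scaffold, went from 30.1, 30.1 and 30.9 FPKM to 25.8, 25.6 and 25.6 FPKM (-0.23, SE 0.028). Every irradiated library was below every control library for both scaffolds. At 0 Gy FBL stood at 104 ± 7.66 FPKM (SD, n = 3), above NOP56 at 59.0 ± 1.75 and NOP58 at 30.4 ± 0.437.

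Box H/ACA particles turn uridines of ribosomal RNA into pseudouridines. DKC1 (dyskerin), the pseudouridine synthase, had 48.8, 44.7 and 44.3 FPKM at 0 Gy and 37.6, 36.1 and 39.1 FPKM at 10 Gy (log2 change -0.28, SE 0.048, limma adjusted p = 0.0048). GAR1, a structural partner of dyskerin, had 33.3, 31.4 and 31.6 FPKM and then 25.6, 24.0 and 26.1 FPKM (-0.34, SE 0.041). NHP2, another core protein of the particle, had 45.2, 43.6 and 41.5 FPKM and then 34.2, 33.6 and 34.8 FPKM (-0.34, SE 0.038). No irradiated library of these 3 genes reached a control library. NHP2 shares 27.4% of its exon bases with RMND5B on the opposite strand (mean 3.20 FPKM), and whether reads were counted by strand is not given in the sources used here. All 6 of these core proteins were called lower under each of the 4 scalings, with TPM values between -0.21 and -0.11. RRP9, a snoRNP protein placed below with the small subunit factors, lost its call under TPM scaling (-0.09) and upper quartile scaling (-0.13).

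**Figure D2:**
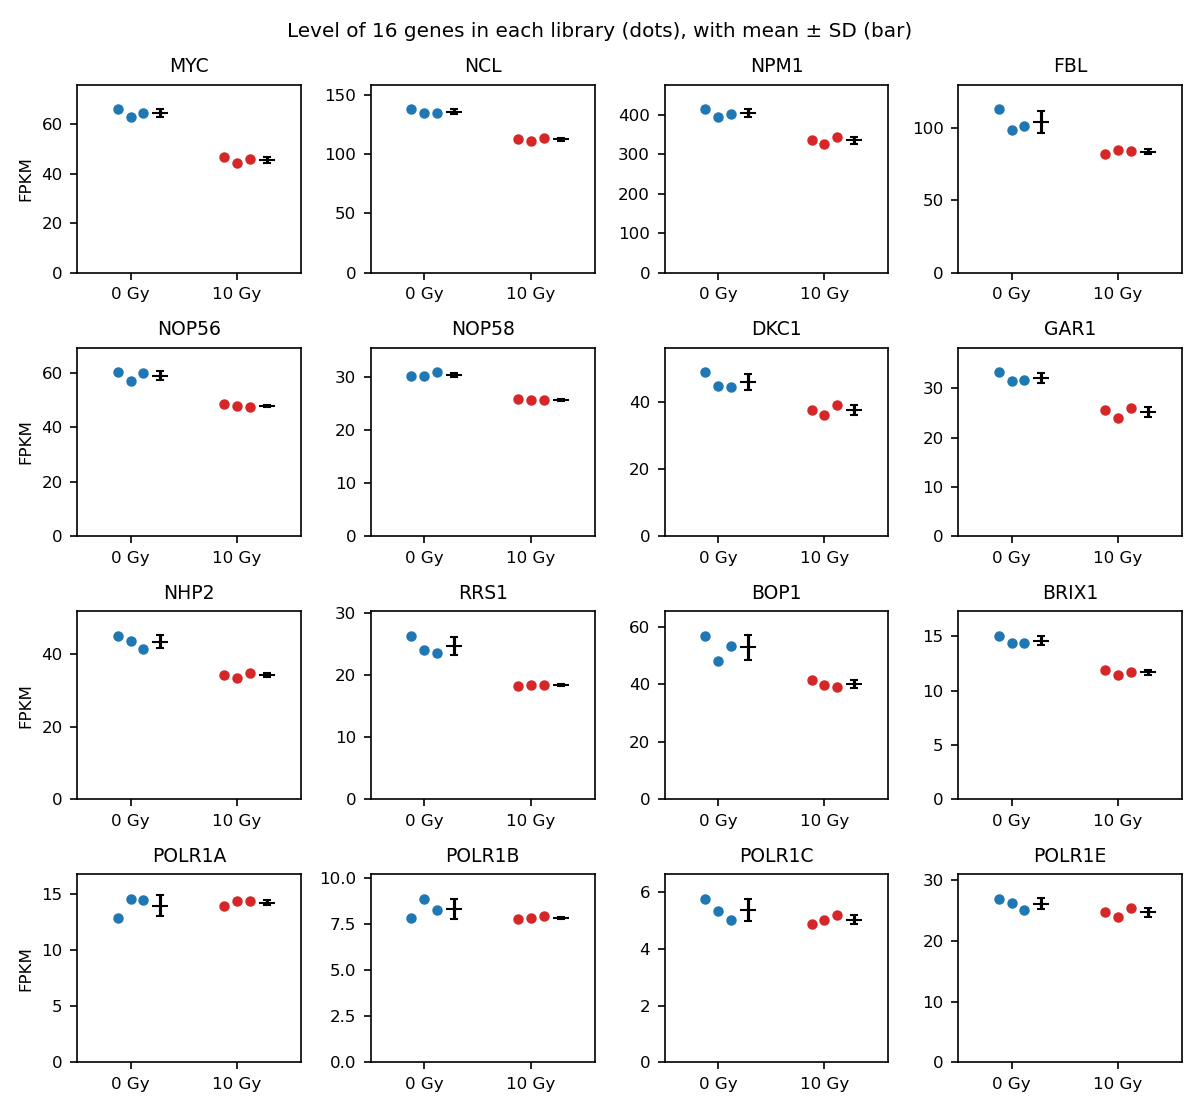
FPKM of 16 genes in each of the 6 libraries (blue dots 0 Gy, red dots 10 Gy), with the mean and SD of each group (n = 3) as a black bar and every axis starting at 0. The 12 genes of the upper rows show no overlap between doses, and the 4 RNA polymerase I subunits of the lowest row overlap.

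Of 6 nucleolar proteins of broader function, 3 were called lower. NPM1 (nucleophosmin), an abundant chaperone of the nucleolus, had 415, 395 and 403 FPKM at 0 Gy and 336, 327 and 345 FPKM at 10 Gy. The groups did not overlap, and the log2 change was -0.27 (SE 0.039, limma adjusted p = 0.0031). NCL (nucleolin), which binds the nascent ribosomal RNA precursor, had 138, 135 and 135 FPKM and then 112, 111 and 113 FPKM (-0.27, SE 0.029). NOLC1, a chaperone of snoRNPs, had 107, 108 and 105 FPKM and then 93.3, 90.2 and 92.3 FPKM (-0.22, SE 0.030). These 3 genes were called lower under each of the 4 scalings. The helicase DDX21 (-0.08), the nucleolar regulator MYBBP1A (-0.11, limma adjusted p = 0.052) and the GTPase GNL3, or nucleostemin (-0.01), did not pass. All 3 values turned above 0 under TPM scaling, but DDX21 and MYBBP1A stayed below the median of all genes (0.07). GNL3 was then called higher, at 0.11, as were 25.8% of all genes tested. As deposited GNL3 had 53.6, 51.7 and 51.5 FPKM at 0 Gy and 53.0, 49.3 and 52.9 FPKM at 10 Gy. Its groups overlapped.

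None of the 4 RNA polymerase I subunits of the group had a called change. POLR1A, the largest subunit, had 12.9, 14.6 and 14.5 FPKM at 0 Gy and 14.0, 14.4 and 14.4 FPKM at 10 Gy (log2 change 0.03, SE 0.049, limma adjusted p = 0.71). POLR1B, which forms the catalytic center with POLR1A, had 7.85, 8.89 and 8.27 FPKM and then 7.79, 7.82 and 7.93 FPKM (-0.08, SE 0.047). In both genes the irradiated libraries lay close together and the controls were spread around or above them. POLR1C, a subunit shared with RNA polymerase III, had 5.76, 5.33 and 5.00 FPKM and then 4.86, 5.02 and 5.19 FPKM (-0.08, SE 0.054). POLR1E, a subunit that takes part in initiation, had 26.9, 26.2 and 25.1 FPKM and then 24.7, 23.9 and 25.3 FPKM (-0.08, SE 0.038). Doses overlapped in all 4 subunits, and the values of POLR1B, POLR1C and POLR1E turned to between 0.03 and 0.05 under TPM scaling. These were still below the median of all genes under that scaling (0.07), while POLR1A, at 0.15, was above it. With 3 libraries a group, missing the threshold does not show that a subunit stayed level.

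Of the 12 small subunit factors, 9 were called lower, with a median log2 change of -0.14. NOB1, the endonuclease that makes the last cut of the small subunit RNA, had 22.3, 19.4 and 21.0 FPKM at 0 Gy and 18.8, 16.5 and 17.7 FPKM at 10 Gy (-0.23, SE 0.063, limma adjusted p = 0.027). RRP9, a protein of the snoRNP that starts small subunit assembly, had 37.9, 34.7 and 37.2 FPKM and then 32.3, 29.7 and 32.1 FPKM (-0.22, SE 0.048). For both genes replicate 2 was the lowest library at each dose, and the groups did not overlap. RRP12, which takes part in export of the subunit, changed by -0.21 and TSR1, a late assembly factor, by -0.20. WDR43 (-0.16), UTP4 (-0.13), WDR75 (-0.12) and UTP15 (-0.11, limma adjusted p = 0.059) belong to the part of the small subunit processome that binds the precursor first, and all but UTP15 were called lower. HEATR1, a protein of the same part from outside the group, did not pass either (-0.08). Also called lower were BYSL (-0.15), a factor of late steps, and NOP14 (-0.13), a processome protein. UTP15, the helicase DDX10 (-0.09) and the scaffold UTP20 (-0.02) did not pass, and their values were above 0 under TPM scaling. Of these, only UTP20 (0.093) was above the median of all genes under that scaling (0.07). None of the 9 called small subunit factors kept its call under TPM scaling, where they lay between -0.11 and -0.0041. TSR1 shares 20.7% of its exon bases with SRR, NOB1 20.2% with AC092115.3 and NOP14 17.1% with NOP14-AS1, each on the opposite strand.

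Of the 10 large subunit factors tested, 9 were called lower, with a median of -0.20. RRS1, which helps load a small ribosomal RNA particle onto the large subunit, had 26.3, 24.0 and 23.5 FPKM at 0 Gy and 18.2, 18.4 and 18.4 FPKM at 10 Gy (-0.40, SE 0.045, limma adjusted p = 0.0012). BOP1 had 56.9, 48.0 and 53.3 FPKM and then 41.6, 39.8 and 38.9 FPKM (-0.38, SE 0.061). Control replicate 1 was the highest library for both genes, and even the lowest control was above every irradiated library. BOP1 works with PES1 and WDR12 in the PeBoW complex, and these partners changed by -0.15 and -0.18. PES1 and WDR12 lost their calls under TPM scaling while BOP1 kept its call at -0.26, and the difference in change between the 3 partners was not tested. BRIX1, an assembly factor, had 15.1, 14.4 and 14.4 FPKM and then 11.9, 11.5 and 11.7 FPKM (-0.30, SE 0.035). NOP16, a nucleolar factor of the same pathway, had 21.3, 19.1 and 19.1 FPKM and then 15.7, 16.5 and 16.0 FPKM (-0.29, SE 0.048). Neither gene overlapped between doses, and both were called lower under each of the 4 scalings. WDR74 (-0.20), RRP1B (-0.15) and the helicase DDX18 (-0.13) were called with FPKM as deposited and not under TPM scaling.

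The other 2 large subunit genes share much of their exons with another gene. PPAN, a relative of BRIX1, changed by -0.21 (SE 0.076, limma adjusted p = 0.072) and did not pass, with 5.32, 4.74 and 5.38 FPKM at 0 Gy and 4.74, 3.82 and 4.45 FPKM at 10 Gy. It shares 56.0% of its exon bases with the readthrough gene PPAN-P2RY11, which was listed at 0. NOP2, a ribosomal RNA methyltransferase, had 0.070, 0.153 and 0.207 FPKM at 0 Gy and 0.214, 0.409 and 0.365 FPKM at 10 Gy and was below the minimum of 1 FPKM. It shares 54.4% of its exon bases with AC006064.6 on the same strand, also listed at 0, and its values are uncertain. RRS1 shares 11.4% of its exon bases with AC009879.2 on the same strand, listed at 0 as well. Exons of 22 of the 40 genes were overlapped by another gene, 9 of them on the same strand.

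Scaling and single libraries set the edge of the call. Called lower under all 4 scalings were 14 genes, namely MYC, RRS1, BOP1, GAR1, NHP2, FBL, BRIX1, NOP56, NOP16, DKC1, NCL, NPM1, NOP58 and NOLC1. With 1 library left out in turn, between 20 and 28 genes were called lower, and 20 of the 28 kept the call in each of the 6 fits. Between 14.9% and 21.7% of all genes were called lower in these fits. The other 8 lost it in at least 1 fit. RRP1B and WDR75 kept it only without control replicate 1, with limma adjusted p up to 0.093 and 0.11. NOB1 and WDR74 lost it without control replicate 1 or 3 or without irradiated replicate 2 or 3, with limma adjusted p up to 0.088 and 0.086. NOP14 and UTP4 lost it without control replicate 3 or irradiated replicate 1 or 2, with limma adjusted p up to 0.085 for both. DDX18 lost it without control replicate 2 or irradiated replicate 2 or 3 (limma adjusted p up to 0.099), and PES1 without irradiated replicate 2 or 3 (up to 0.073). Without control replicate 1, DDX21 (limma adjusted p = 0.022) and MYBBP1A (0.0499) were called lower.

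**Figure D3:**
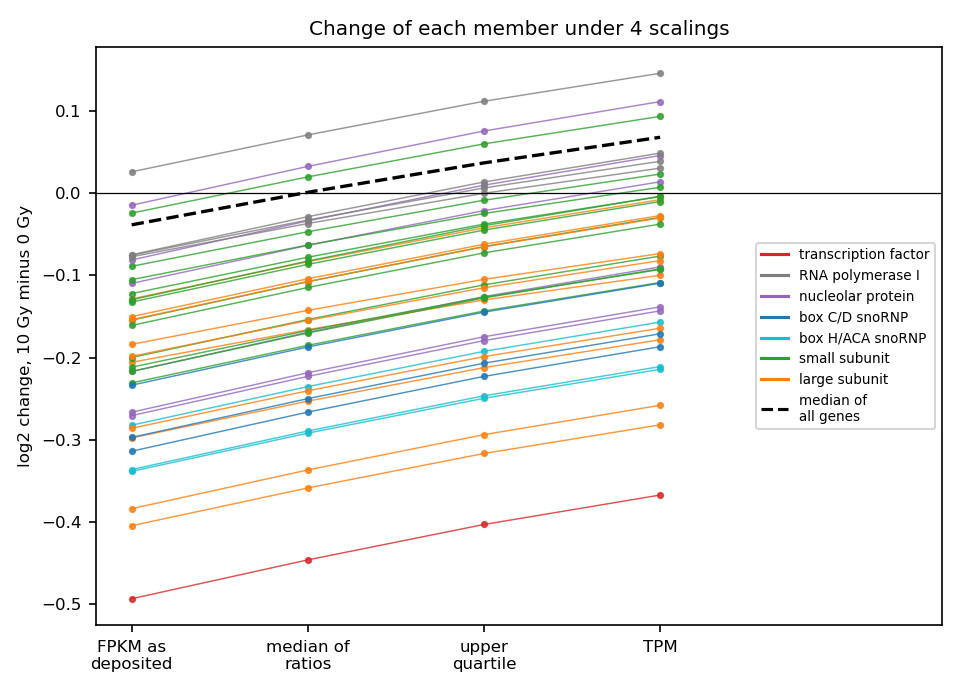
Log2 change of each of the 39 tested genes under 4 scalings, from FPKM as deposited to TPM, 1 line a gene colored by role, with the median of all genes dashed. The lines shift upward together as the median of all genes goes from -0.04 to 0.07, and MYC stays lowest, between -0.49 and -0.37.

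The group is highly expressed. Its 39 tested genes had means between 5.14 and 404 FPKM at 0 Gy with a median of 26.0, against a median of 7.11 FPKM over all genes tested, and between 180 and 38458 reads stood behind each gene in a library. NPM1 was the highest, followed by NCL at 136 ± 1.91 FPKM, NOLC1 at 107 ± 1.62, FBL at 104 ± 7.66, DDX21 at 92.1 ± 3.81 and MYC at 64.6 ± 1.55 (SD, n = 3). NOLC1 and FBL did not differ beyond their spread. The lowest tested genes were PPAN, POLR1C and WDR12, at 5.14 ± 0.356, 5.37 ± 0.382 and 6.59 ± 0.0763 FPKM, and PPAN and POLR1C did not differ beyond their spread. The coefficient of variation between control libraries was between 1.09% and 8.68%, with a median of 3.43%. Highly expressed genes were called lower more often in these libraries, and at a minimum of 5 FPKM 29 of the 38 genes tested were called lower, against 37.6% of all genes.

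**Figure D4:**
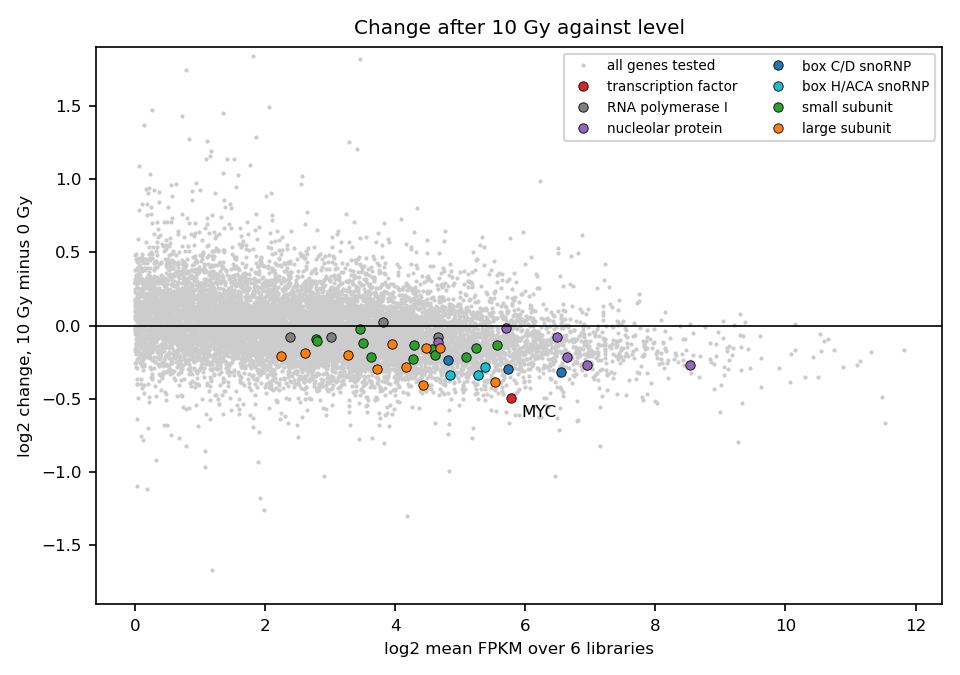
Log2 change, 10 Gy minus 0 Gy, against the log2 mean FPKM over the 6 libraries, for the 12128 genes tested (grey) and the 39 genes of the group (colored by role). The group lies to the right of most genes and, apart from POLR1A at 0.03, below the line at 0.

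Together the 40 genes summed to 1722 ± 31.9 FPKM at 0 Gy and 1460 ± 23.5 FPKM at 10 Gy (SD, n = 3), a ratio of 0.848. NPM1 made up 23.5% of the control sum. Without NPM1 and NCL the ratio was 0.856. On the TPM scale the sums were 6307 ± 49.7 and 5848 ± 77.7, a ratio of 0.927, and on both scales the highest irradiated sum was below the lowest control sum. Across the 39 tested genes, the log2 change had a Spearman correlation of 0.55 with gene length and -0.41 with mean level, against 0.18 and -0.32 across all genes tested. These are descriptions across genes that share libraries. Of the 20 genes of up to 4247 exon bases 17 were called lower, and of the 19 longer ones 11, while the shares among all genes were 28.3% and 19.9%. The depth by which a library's values were divided was 0.973 to 0.991 times its own reads at 0 Gy and 1.03 to 1.04 times at 10 Gy, and the 10 highest genes took 4.43% to 4.51% and 4.05% to 4.13% of reads. The part of gene length and of these library values in the results was not tested.

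Genes of the same pathway outside the group were taken from 6 lists, also chosen with earlier results of these data known. Of the 42 other large subunit factors, 26 were called lower and 0 higher (median log2 change -0.15), led by PAK1IP1 (-0.40) and EBNA1BP2 (-0.35), both assembly factors of that subunit. Of the 39 other small subunit factors tested, 19 were called lower and 0 higher (median -0.14). The largest decreases there were those of the ribosomal RNA methyltransferase EMG1 (-0.37) and the processome protein IMP3 (-0.35). Under TPM scaling the lower calls were 8 of 42 and 9 of 39, with 2 and 1 higher. Among all genes tested, 8.83% were called lower and 25.8% higher under that scaling. In the other RNA polymerase I machinery, 7 of 12 were called lower and 0 higher (median -0.19), and 3 of 12 under TPM scaling. The polymerase subunit CD3EAP had the largest decrease, from 4.92 ± 0.255 to 3.77 ± 0.354 FPKM (-0.31, SE 0.066, limma adjusted p = 0.011). ZNRD1, another subunit, was called lower as deposited (-0.27) and not under TPM scaling (-0.17), while the subunits POLR1D (-0.14) and TWISTNB (-0.01) did not pass. Of 11 other snoRNP proteins and their assembly factors, 3 were called lower, a share near that of all genes, and their median of -0.06 turned to 0.05 under TPM scaling. NOP10, the remaining core protein of the box H/ACA particle, was one of the 3, from 135 ± 10.9 to 107 ± 3.37 FPKM (-0.33, SE 0.060).

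MYC targets of other function included 18 of 24 genes called lower and 0 higher, with a median of -0.20. Under TPM scaling 11 were called lower and 3 higher, against 8.83% and 25.8% of all genes tested. CDK4, a kinase of entry into the cell cycle, went from 53.6 ± 2.29 to 35.5 ± 0.580 FPKM (-0.58, SE 0.038, limma adjusted p = 0.00043). HK2, the hexokinase that opens glycolysis, went from 12.1 ± 0.408 to 9.11 ± 0.142 FPKM (-0.37, SE 0.037). Both decreases kept their calls under TPM scaling, at -0.45 and -0.26. The MYC network, which includes partners and antagonists of MYC, moved both ways. Of 10 tested, MAX (-0.15), the dimer partner of MYC, MLX (-0.23), of the wider network, and MXD3 (-0.38), a MAX-binding repressor, were called lower. MGA (0.22), MNT (0.20), MXD4 (0.16) and MLXIP (0.16) were called higher, of which MGA, MNT and MXD4 encode MAX-binding repressors. MXD3 went from 6.03 ± 0.374 to 4.40 ± 0.253 FPKM and MGA from 2.73 ± 0.206 to 3.34 ± 0.0351 FPKM. Under each of the other scalings the network had 2 lower and 4 higher calls. MXD3 kept its call under TPM scaling (-0.27), so MAX and MLX did not both keep theirs there. Of all genes tested, 8.83% were called lower and 25.8% higher under TPM scaling. With FPKM as deposited, the 4 higher calls were not all kept with 1 library left out. Without any 1 of the 3 irradiated replicates 0 were left, in fits that called 7.03% to 8.31% of all genes higher. The count was 1 without control replicate 3 (9.4% of all genes), 2 without control replicate 1 (11.5%) and 3 without control replicate 2 (10.5%). MYCN and MYCL, the other MYC genes, did not exceed 0.0177 and 0.164 FPKM in any library.

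**Figure D5:**
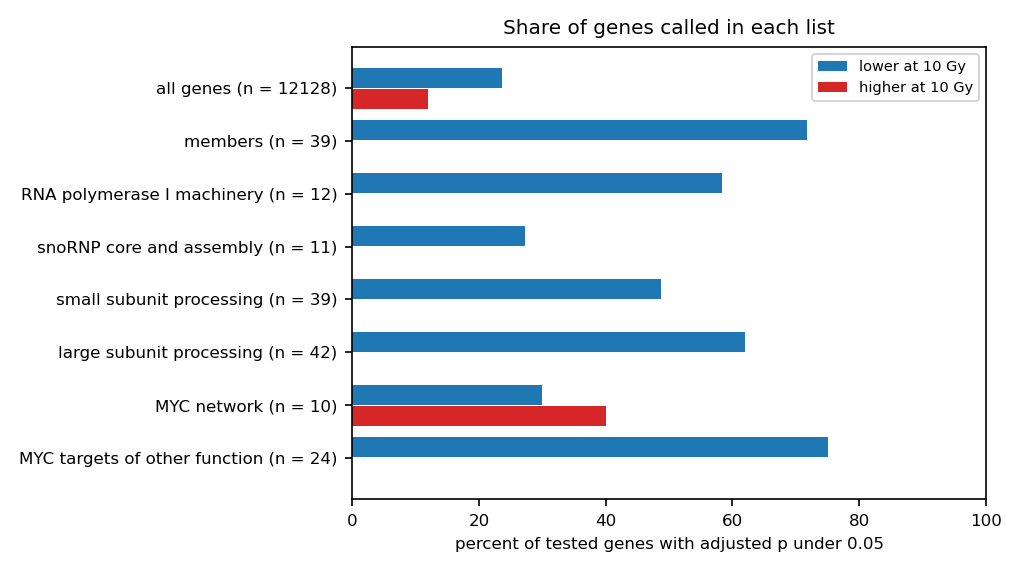
Percent of tested genes called lower (blue) and higher (red) at 10 Gy with FPKM as deposited, for all genes, the group of 39 tested genes (members) and 6 other lists, with the number tested in brackets. All genes stand at 23.7% lower and 11.9% higher, and the MYC network is the only one of the 6 lists with a red bar.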

How the data were processed

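RNA was extracted with the RNeasy Mini Kit from MDA-MB-231 cells at 0 Gy (n = 3) and 24 h after 10 Gy (n = 3), and polyA libraries were prepared and sequenced by Novogene. The authors deposited FPKM values for each gene. Their processing notes name HISAT2 and GRCh38, and the counting program, its strand setting and the test behind fold changes are not given in the sources used here. Gene coordinates equalled GENCODE 29. Multiplied by gene length and implied depth, 100% of values above 0 lay within 0.05 of a whole read.

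Dose groups were tested on log2(FPKM + 1) by limma 3.58.1 in R 4.3.3 (eBayes with an intensity trend, two-sided) across the 12128 genes that averaged 1 FPKM or more, with Benjamini-Hochberg adjustment over all of them, after a test on simulated data. Members and lists were chosen with earlier results of these data known. Every member was named. All library values were given for MYC, NCL, NPM1, FBL, 4 RNA polymerase I subunits and the 12 other members with the largest called change and no overlap. In other lists the largest called rise and fall were named (2 each in lists of 15 genes or more), and the other called MYC network genes, GNL3, PPAN, NOP2, SNU13, HEATR1, ZNRD1, POLR1D and TWISTNB were added after their values were seen. Alternatives covered pseudocount, filter, scaling, the replicate block, eBayes settings, gene type, voom on recovered reads and each library left out. Promoter sequences came from RefSeq (GRCh38.p14). Python 3.11.15 and matplotlib 3.10.9 were used for figures.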

Additional observations from a re-analysis of the deposited data

How the results depend on the processing

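The number of genes called lower was 28 as reported, 14 with TPM scaling and 16 with upper quartile scaling (15 and 16 called in either direction), and it ranged from 20 to 28 with each library left out. The log2 ratio of the summed level was -0.24 with FPKM and -0.11 with TPM. At least 1 of the promoter motifs stood in 21 genes, CACGTG in 13 and CACGCG in 11, with 3 genes (DDX21, FBL and NOP14) holding both. Changes of sign fell on genes that did not pass the test as reported. With TPM scaling DDX10 was at 0.023, DDX21 at 0.046, GNL3 at 0.11, MYBBP1A at 0.014, POLR1B at 0.039, POLR1C at 0.030, POLR1E at 0.048, UTP15 at 0.0069 and UTP20 at 0.093. Of these, GNL3 and UTP20 alone were above the median of all genes under that scaling (0.07). With upper quartile scaling DDX21 was at 0.0095, GNL3 at 0.075, POLR1B at 0.0061, POLR1E at 0.013 and UTP20 at 0.060. Here too, only GNL3 and UTP20 of the genes just listed were above the median of all genes, which was 0.037 under this scaling. With median of ratios scaling GNL3 was at 0.032 and UTP20 at 0.020, and centred on the median of all genes, a choice made after seeing the data, GNL3 was at 0.024 and UTP20 at 0.014. With each library left out GNL3 ranged from -0.033 to 0.019, POLR1A from -0.028 to 0.055 and UTP20 from -0.092 to 0.013. Apart from the scaling itself, the cause of these changes was not tested. With no filter on low genes 22 genes were lower, against 5.73% of all genes. Same-numbered replicates of the 2 doses did not deviate together (correlations of -0.040, -0.035 and -0.101). The fit with the replicate block called 25 genes (and 19.5% of all genes) lower, without DDX18, NOP14, RRP1B and WDR75 and with PPAN. In that fit 1 gene of the MYC network was called higher in place of 4, as were 9.4% of all genes.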
